A study of Homo sapiens with 4 samples.

Results

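The regions described here are the peaks of 5-methylcytosine (5mC) that lay in 4 olfactory receptor gene clusters of C42B cells, a prostate cancer cell line. Members were all peaks that overlapped any of 4 spans of hg19 by at least 1 bp, in the peak list of the control or of the knockout cells. The spans were chromosome 11 from 4.3 to 6.3 Mb, which also holds the beta-globin genes near 5.25 Mb, chromosome 11 from 54.9 to 56.6 Mb, chromosome 11 from 123.6 to 124.45 Mb, and chromosome 1 from 247.5 to 248.9 Mb. They are called 11p15, 11q11, 11q24 and 1q44 below, after the chromosome band in which each lies or begins, and together cover 5.95 Mb. They held 98 of the 261657 control peaks and 139 of the 296521 knockout peaks.

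Methylated DNA was enriched by immunoprecipitation with an antibody against 5mC and sequenced (MeDIP-seq). The control cells carried the guide sgC (WT). The knockout cells carried sgPKCl/i and are labelled PKCl/i KO, after a protein kinase C. Both were grown untreated and harvested 48 h after plating at about 70% confluency. Each of the 4 groups, an input and an immunoprecipitate per genotype, held 1 library, so no difference below has a replicate check and no p-value is given. Nothing in the sources used here says whether the knockout was a single clone or a pool. A peak's pileup is the number of fragments stacked at its summit. The library mean, taken as the lowest local background in each list, was 2.92 fragments for control cells and 4.42 for knockout cells, a ratio of 1.51 that is used here as the measure of depth. Intervals in parentheses are at the 95% level and cover counting error only.

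Olfactory receptors are G protein-coupled receptors of sensory neurons, and their genes form one of the largest gene families of mammals. Each olfactory neuron expresses a single receptor gene from a single allele, while in most other tissues the clusters lie in compact, late-replicating chromatin. The beta-globin genes, which are expressed in red cell precursors, sit inside the 11p15 cluster. A few receptors are expressed elsewhere, and OR51E1 and OR51E2 of 11p15 are known from prostate epithelium and prostate cancer. The 5mC antibody binds methylated cytosine, which in human cells is found mainly at CG dinucleotides.

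The promoter windows listed for these genes held few CG dinucleotides. In the RefSeq promoter table (GRCh38.p14, 250 bases before to 50 after each gene's start) the 4 runs of at least 20 neighbouring olfactory receptor genes on chromosomes 11 and 1 held 174 protein-coding genes, of which 142 matched a promoter. Runs were linked to the spans by chromosome and gene order. They were not cut at the ends of the spans, so a run may reach beyond its span. The GRCh38.p14 positions are not comparable with the hg19 positions of the peaks. The letters CG, which read the same on both strands, occurred a median of 1 time in the 142 windows, against 14 times in all 35116 windows of the table. Of the 142 windows 80.3% held CG at least once, against 96.0% of all windows, and 91.5% held it 3 times or fewer, against 24.5% of all. The median count was 1 in the 11p15 and 11q11 runs and 2 in the 11q24 and 1q44 runs. Of the 12 windows with more than 3, OR2L13 had 24, OR52N2 had 14, OR51S1 and OR14L1 had 6 each, and the others had 4 or 5. Median GC content was 37.0%, against 58.7% over the table. The windows below are OR51E1, shown for its known expression in prostate, and for each run the first gene in order at the run's median count, shown as a typical window. Each is written 5′ to 3′ on its own strand, and capitals mark CG.

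OR51E1, chr11:4643732-4644031, plus strand: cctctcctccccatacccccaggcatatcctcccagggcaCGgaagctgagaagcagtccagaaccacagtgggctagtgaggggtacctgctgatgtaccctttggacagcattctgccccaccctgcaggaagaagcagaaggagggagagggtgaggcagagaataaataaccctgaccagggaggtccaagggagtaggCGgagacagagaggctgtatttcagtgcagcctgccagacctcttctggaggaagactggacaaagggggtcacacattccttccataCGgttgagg
OR52I1, chr11:4593789-4594088, plus strand: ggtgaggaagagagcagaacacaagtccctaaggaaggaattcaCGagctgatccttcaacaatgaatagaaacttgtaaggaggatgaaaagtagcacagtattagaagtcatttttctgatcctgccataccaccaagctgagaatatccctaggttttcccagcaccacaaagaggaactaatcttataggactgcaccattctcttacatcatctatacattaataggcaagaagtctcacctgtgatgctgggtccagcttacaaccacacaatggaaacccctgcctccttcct
OR4C6, chr11:55661951-55662250, plus strand: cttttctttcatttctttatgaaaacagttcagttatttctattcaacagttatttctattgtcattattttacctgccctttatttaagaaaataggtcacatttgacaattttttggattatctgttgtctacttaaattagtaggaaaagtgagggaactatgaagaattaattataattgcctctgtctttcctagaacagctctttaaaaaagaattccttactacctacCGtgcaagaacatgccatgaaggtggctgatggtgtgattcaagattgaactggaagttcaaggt
OR6M1, chr11:123806300-123806599, minus strand: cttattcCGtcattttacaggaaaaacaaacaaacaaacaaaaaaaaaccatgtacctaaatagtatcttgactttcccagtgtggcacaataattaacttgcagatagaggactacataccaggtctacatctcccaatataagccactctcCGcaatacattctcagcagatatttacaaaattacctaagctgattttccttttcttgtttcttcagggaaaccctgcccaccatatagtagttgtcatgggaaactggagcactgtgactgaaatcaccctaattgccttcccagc
OR2G2, chr1:247588110-247588409, plus strand: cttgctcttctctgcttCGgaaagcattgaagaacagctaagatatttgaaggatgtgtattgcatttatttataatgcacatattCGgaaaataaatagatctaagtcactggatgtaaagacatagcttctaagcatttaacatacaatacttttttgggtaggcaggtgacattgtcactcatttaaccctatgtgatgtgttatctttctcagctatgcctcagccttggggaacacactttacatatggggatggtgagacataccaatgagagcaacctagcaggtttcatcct

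OR51E1 had 3 CG in a window of 57.0% GC. The typical windows of 11p15 and 11q11, OR52I1 and OR4C6, held 1 each at 43.7% and 32.3% GC. OR6M1 of 11q24 and OR2G2 of 1q44 held 2 each at 39.0% and 38.3% GC. HBD held 2 and was the only beta-globin gene with a window, as HBB, HBG1, HBG2 and HBE1 had none in the promoter table. OR51E2 had none either. In OR52I1, OR6M1 and OR2G2 the 50 bases after the listed gene start open with ATG, a start codon. Such windows may lie at the start of the coding sequence rather than of the transcript. How many of the windows do so was not tested, so the counts are of listed gene starts and not of proven promoters. Whether the number of CG bears on the peaks described next was not tested.

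**Figure D1:**
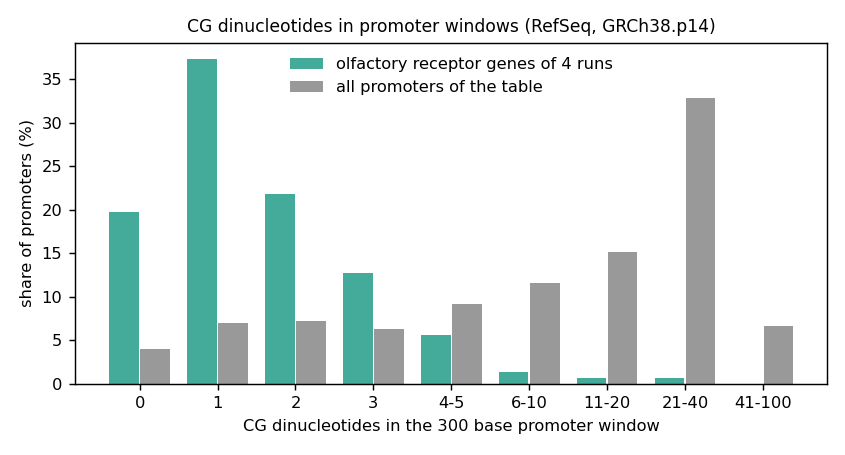
Number of CG dinucleotides per 300 base promoter window (x axis) against the share of promoters in percent (y axis), for the 142 olfactory receptor genes of the 4 runs and for all 35116 windows of the table. The receptor genes lie at the low end, with a median of 1 against 14.

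5mC peaks were sparse in all 4 clusters, whichever genotype was read. Per Mb of cluster there were 16.5 control peaks (13.4 to 20.1) and 23.4 knockout peaks (19.6 to 27.6). Chromosome 11 as a whole had 91.3 and 103 per Mb, and chromosome 1 had 98.3 and 107. The clusters thus had 0.172 times the density of the 2 chromosomes in the control (0.140 to 0.209) and 0.221 times in the knockout (0.186 to 0.261). Covered length was low as well, with 0.808% of cluster bases under a peak in the control and 1.17% in the knockout, against 5.42% and 6.19% of the 2 chromosomes.

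The 4 spans were not equally sparse. In 11p15 there were 49 control peaks (24.5 per Mb) and 69 knockout peaks (34.5 per Mb), the highest density of the 4 spans in each list. In 1q44 there were 27 and 29 peaks, or 19.3 and 20.7 per Mb. In 11q11 there were 16 and 27, or 9.41 and 15.9 per Mb. In 11q24 there were 6 and 14, or 7.06 (2.59 to 15.4) and 16.5 per Mb (9.0 to 27.6). Against its own chromosome the control density was 0.268 times in 11p15, 0.103 times in 11q11, 0.0773 times in 11q24 and 0.196 times in 1q44. The control interval of 11p15 (18.1 to 32.4) lay above those of 11q11 and 11q24. Ordered by control density, each span's interval overlapped that of the next. The intervals treat peaks as independent, while cluster peaks were gathered in a few places, so they do not settle which spans differ.

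**Figure D2:**
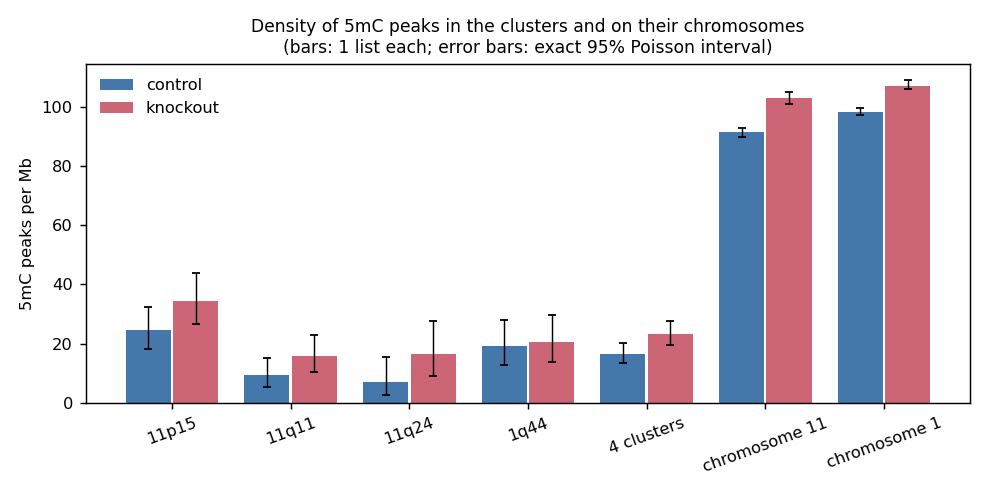
5mC peaks per Mb (y axis) in each span, in the 4 clusters together and on the whole of chromosomes 11 and 1, with 1 bar per list and exact 95% Poisson intervals. The spans lie between 7.06 and 34.5 peaks per Mb, and the chromosomes between 91.3 and 107.

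The clusters were among the sparser stretches of these chromosomes, though not the sparsest. Among all stretches of the same length taken every 100 kb along the chromosome, 18.7% had as few control peaks as 11p15 or fewer. The share was 13.4% for 11q11, 16.8% for 11q24 and 20.3% for 1q44, and in the knockout it was 21.2%, 14.9%, 21.6% and 19.4% in the same order. Leaving out every stretch that touched the chromosome's longest peak-free stretch (3.39 Mb on chromosome 11 and 21 Mb on chromosome 1), the control shares were 15.3%, 9.91%, 14.7% and 13.3%. For the knockout they were then 17.9%, 11.6%, 19.1% and 12.3%. The median of all such stretches was 58.2 to 61.5 control peaks per Mb on chromosome 11 and 74.3 on chromosome 1. The flanks of every span but 11q11 were denser than the span on both sides. The 0.5 Mb before 11p15 held 184 control peaks per Mb and the 0.5 Mb before 1q44 held 264, while the 0.5 Mb before 11q24 held 32.0. Before 11q11 there were 0 peaks in either list, and the flank lay inside a stretch from 51.6 to 55.0 Mb free of peaks that is the longest of chromosome 11. Whether reads can be placed in this stretch, in that of chromosome 1 or throughout the clusters was not tested. A lack of peaks is therefore not by itself a lack of methylation.

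Within the clusters the peaks were gathered in a few places. Of 59 windows of 100 kb inside the spans, 33 held no control peak (55.9%) and 22 no knockout peak (37.3%). Outside the clusters 26.8% and 24.4% of windows on the 2 chromosomes held none, or 21.8% and 19.2% without the 243 windows inside the longest peak-free stretch of each chromosome. The median window held 0 control and 1 knockout peak in the clusters, against 6 and 7 outside without those 243. Where peaks of either list were chained at distances of up to 10 kb, 7 groups had at least 10 peaks. These 7 groups took up 3.69% of cluster length and held 55 of 98 control peaks (56.1%) and 67 of 139 knockout peaks (48.2%). The chaining and its limits were set after the peaks had been seen. Groups kept for their many peaks hold a high share in little length by construction. No such groups are given for the rest of the chromosomes, so these shares do not set the clusters apart. Outside the 7 groups the clusters held 7.50 control and 12.6 knockout peaks per Mb.

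**Figure D3:**
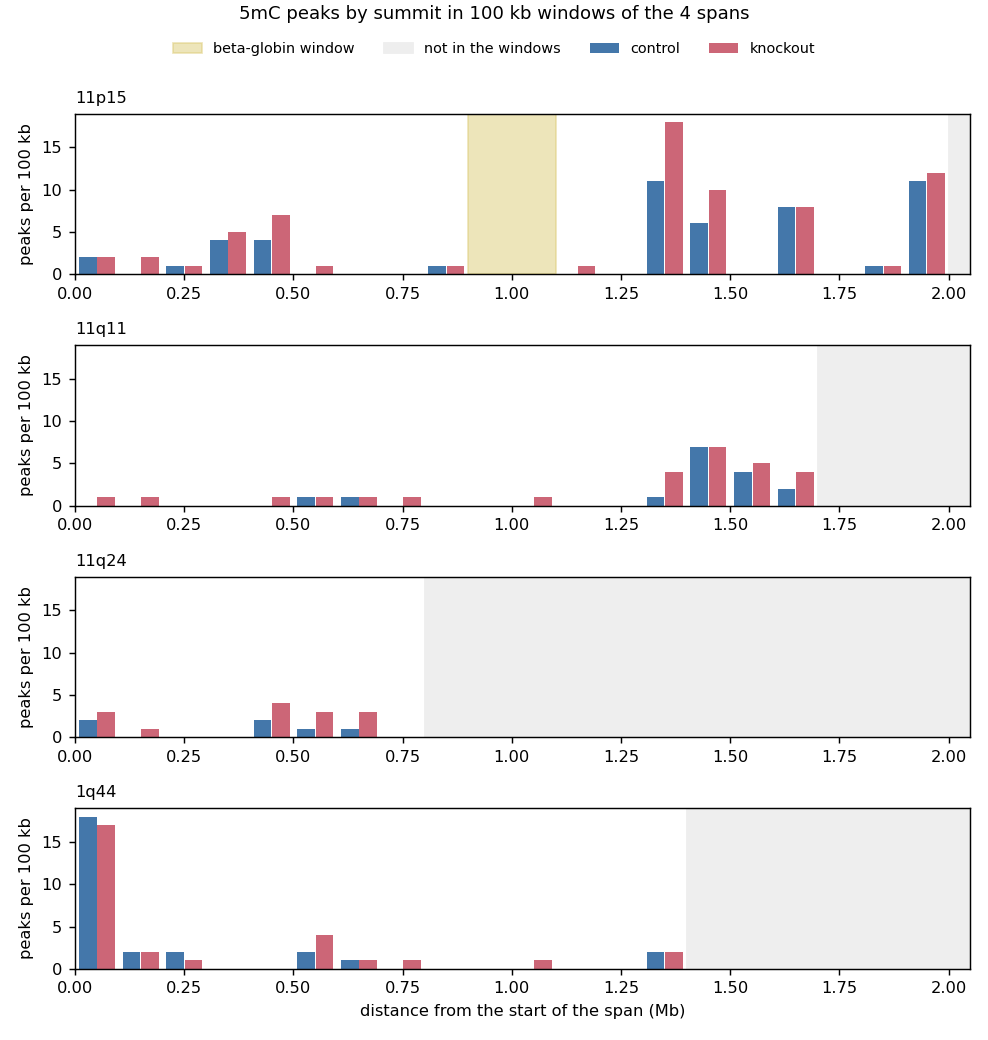
Peaks per 100 kb window (y axis), placed by summit, against distance from the start of each span in Mb (x axis), for the control and knockout lists. The highest window of each list holds 18 peaks, and most windows hold 0 to 2, with 0 of either list in the shaded beta-globin window.

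The beta-globin window lacked peaks altogether. From 5.2 to 5.4 Mb of chromosome 11 the control list held 0 peaks and the knockout list 0 peaks, where the mean of chromosome 11 would give 18.3 and 20.6. A count of 0 in 0.2 Mb allows up to 15 peaks per Mb by the limit of 3 counts, and up to 18.4 by the exact Poisson interval used elsewhere. Both are below the chromosome mean, and the second is above the control density of the 4 clusters. The window lay in a stretch free of peaks in both lists from 5166902 to 5486151, or 319 kb, which ranked 40 by length on chromosome 11. On the other side of a single shared peak a longer stretch of 364 kb ran from 4802897 to 5166468. That shared peak had a pileup of 27 in the control (5166469 to 5166844) and 41 in the knockout (5166493 to 5166901), 9.24 and 9.27 times the library mean. From 4.8 to 5.6 Mb there were 1 control and 3 knockout peaks in all.

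The other spans had stretches of the same kind. The longest was 346 kb in 11q11 (55911708 to 56257355), 267 kb in 11q24 (123738985 to 124006252) and 359 kb in 1q44 (248208100 to 248567306). Over the whole of chromosome 11 the median distance between neighbouring peaks of either list was 1.88 kb, and 70 peak-free stretches exceeded 200 kb. The median was 3.86 kb in 11p15, 24.5 kb in 11q11 and 17.3 kb in 11q24, and 6.21 kb in 1q44 against 1.99 kb on chromosome 1.

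In 11p15 peaks gathered from 5.6 to 5.8 Mb, from 5949389 and from 6230979. The densest window, 5.6 to 5.7 Mb, held 11 control and 18 knockout peaks. A compact group from 5949389 to 5959125, only 9.74 kb long, held 8 control and 8 knockout peaks, and all 16 had a counterpart in the other list. The highest pileups there were 42 (control) and 69 (knockout). A group from 6230979 to 6257290 held 9 and 10 peaks. In this span 7 windows of 100 kb held no peak of either list, among them 4.9 to 5.0 Mb.

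A pair is a control and a knockout peak that overlap each other and no further peak, and its ratio is that of pileups, knockout over control, each divided by its library mean. The strongest pair was at 5704288 to 5704648 in the control, with a pileup of 39 (27.7 to 53.3), and at 5703919 to 5704684 in the knockout, with 96 (77.8 to 117). These pileups were 13.3 and 21.7 times the library mean, a log2 ratio of 0.70, the highest of the span. The next pair, at 4743879 to 4744819 in the control, had pileups of 39 and 67 and a log2 ratio of 0.18. The third, at 6238979 to 6239344, had 35 and 54 and a ratio of 0.03. The lowest ratio was -0.60 at 6230979 to 6231697, where both pileups were 24.

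In 11q11 most peaks lay at the distal end, a division of the span made after its peaks had been seen. From 56.2 to 56.6 Mb there were 14 control and 20 knockout peaks in 0.4 Mb. The 1.3 Mb before it held 2 control peaks, both with a pileup of 19, and 7 knockout peaks with pileups of 21 to 34. Of these 7, 5 had no control counterpart, where 23.9% of knockout peaks over the genome had none. These 5 were weak, with pileups of 21 to 27, or 4.75 to 6.10 times the library mean. Under 6 times the mean, 54.1% of knockout peaks outside the clusters on the 2 chromosomes had no control counterpart. The strongest pair lay at 56457493 to 56458141 in the control, with a pileup of 50 (37.1 to 65.9), and at 56457547 to 56458175 in the knockout, with 81 (64.3 to 101). At 17.1 and 18.3 times the library mean the 2 levels were close, and the log2 ratio was 0.10. The ratio was highest at 56389887 to 56390227, with pileups of 22 and 49 (0.56), and lowest at 56310091 to 56310710, with 34 and 36 (-0.52).

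In 11q24 there were 6 control peaks, fewer than in any other span. The strongest pair began at 124273405 in the control, with a pileup of 44 (32.0 to 59.1), and at 124273026 in the knockout, with 61 (46.7 to 78.4), and its log2 ratio was -0.13. A long pair, 1376 bp in the control (124070832 to 124072207), had pileups of 27 and 54 and a ratio of 0.40. The third pair, at 123602752 to 123603224, had 29 and 43 and a ratio of -0.03. The highest ratio was 0.59 at 124076309 to 124076790, where the pileups were 14 and 32.

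In 1q44 most peaks lay at the proximal edge. The window from 247.5 to 247.6 Mb held 18 of 27 control peaks (66.7%) and 17 of 29 knockout peaks (58.6%). The strongest pair, at 247535241 to 247536000 in the control, had pileups of 46 (33.7 to 61.4) and 54 (40.6 to 70.5), or 15.7 and 12.2 times the library mean (log2 ratio -0.37). The second, at 248100320 to 248100761, had 36 and 52 (-0.07), and the third, at 247532962 to 247533802, had 31 and 45 (-0.06). The highest ratio of the span was 0.59 at 247537341 to 247537669, with 21 and 48. The lowest log2 ratio of any cluster pair was -0.92, at 247512349 to 247512783, with pileups of 30 and 24, the only named pair whose deposited pileup was lower in the knockout. The highest pileup of all members was in this span too, a knockout peak of 116 at 247681038 to 247682272, or 26.2 times the library mean. It overlapped 2 control peaks with pileups of 22 and 33 (7.53 and 11.3 times the mean), so it was in no pair. It was singled out after its value had been seen.

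Cluster peaks, pooled over the 4 spans, were weaker at the median than those of the chromosomes around them. Strong peaks, with a −log10 q of at least 10, made up 46.9% of control and 67.6% of knockout cluster peaks, against 58.3% and 75.1% outside. The control share was 53.1% in 11p15, 68.8% in 11q11 and 50.0% in 11q24, against 57.1% on chromosome 11. In 1q44 it was 22.2%, against 58.8% on chromosome 1. The knockout share of each span was below that of its chromosome. The median pileup was 24 in the control clusters (full range 13 to 50) and 25 outside them, or 8.21 and 8.55 times the library mean. In the knockout it was 31.0 (full range 16 to 116) against 37.0, or 7.01 and 8.36 times the mean. In the control list 11q24 alone had a median above that of its chromosome, 8.72 against 8.55 times the mean. Pileups under 8 times the mean made up 49.0% of control and 64.7% of knockout cluster peaks, against 42.3% and 47.4% outside. Cluster peaks had a median length of 430.0 bp (control) and 422 bp (knockout), against 459 and 462 bp outside. Median fold enrichment, the authors' ratio of pileup to local background with 1 added to each, was 5.10 and 5.08, against 5.50 and 5.37. By span it ran from 4.47 to 5.48 in the control and from 4.66 to 5.81 in the knockout. Control fold was 5.42 in 11q11 and 5.48 in 11q24, above the 5.37 of chromosome 11. It was 5.35 in 11p15, close to that value, and 4.47 in 1q44, against 5.52 on chromosome 1. Knockout fold was above that of its chromosome in 11q11 alone, at 5.81 against 5.35. The lower pooled fold thus did not hold in each span.

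Paired peaks went both ways, with log2 ratios from -0.92 to 0.70 and 43 of 80 higher in the knockout. Beside the 80 pairs, 9 control and 8 knockout peaks overlapped in other numbers than 1 to 1 and have no ratio, among them the knockout peak of 116 in 1q44. The median log2 ratio of the pairs was 0.02 (order-statistic interval -0.06 to 0.11, which covers the scatter of pairs), with quartiles of -0.19 and 0.19. It was 0.04 over the pairs of chromosome 11 and -0.03 over those of chromosome 1. By span it was 0.00 over 41 pairs in 11p15, 0.10 over 15 in 11q11, 0.34 over 5 in 11q24 and 0.05 over 19 in 1q44. No pair was past 2-fold in either direction, a count that leaves out those peaks. Over the genome 0.445% of pairs were over 2-fold higher and 0.140% over 2-fold lower in the knockout, so with 80 pairs a count of 0 is near the background. Scaling by the library means removes any change common to the whole genome.

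**Figure D4:**
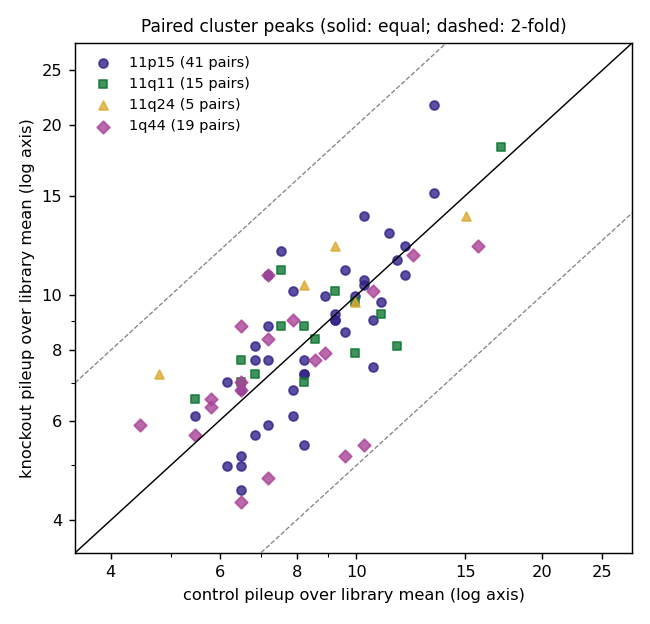
Pileup over the library mean in the control (x axis) and the knockout (y axis), both on log axes, for the 80 paired cluster peaks, with 1 point per pair and markers by span. All points lie between the dashed 2-fold lines, and the highest ratio of 11p15 is the pair at 13.3 and 21.7 times the mean.

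Knockout-only peaks made up a larger part of the cluster peaks than of the chromosomes. Peaks are called control-only or knockout-only where the other list had nothing overlapping them by even 1 bp, whatever its q. In the clusters 51 of 139 knockout peaks were knockout-only, or 36.7% (28.7 to 45.3). The share was 23.4% on chromosome 11, 21.8% on chromosome 1 and 23.9% over the genome. Control-only peaks numbered 9 of 98, or 9.18% (4.29 to 16.7), against 11.8% on chromosome 11, 13.1% on chromosome 1 and 12.1% over the genome. The knockout-only share was 34.8% in 11p15, 37.0% in 11q11, 64.3% in 11q24 (9 of 14) and 27.6% in 1q44, and the intervals of the 4 spans overlapped. Those of 11q11 (19.4 to 57.6) and 1q44 (12.7 to 47.2) included the share of their chromosome. Those of 11p15 (23.7 to 47.2) and 11q24 (35.1 to 87.2) lay above it. Of the 51 knockout-only peaks 45 had no control peak within 1000 bp, or 32.4% of knockout cluster peaks, against 14.8% on chromosome 11 and 13.7% on chromosome 1. With the knockout pileups and backgrounds divided by the ratio of library means and the list reduced to as many peaks as the control's, 38 of 115 cluster peaks were knockout-only (33.0%, 24.6 to 42.4), against 19.7% on chromosome 11 and 17.9% on chromosome 1. By the same measure 18.4% of control cluster peaks were control-only (11.3 to 27.5), against 17.3% and 19%.

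Knockout-only cluster peaks were mostly weak. Their median pileup was 26.0 (full range 16 to 84), 5.88 times the library mean, against 37.0 or 8.36 times for the shared ones. At pileups under 6 times the mean 63.6% of knockout cluster peaks were knockout-only (47.8 to 77.6), against 54.1% outside the clusters on the 2 chromosomes. From 6 to 8 times the mean the shares were 45.7% (30.9 to 61.0) and 30.8%. From 8 to 10 times they were 0 of 21 (0 to 16.1) and 11.8%. At 10 times and over they were 7.14% (2 of 28, 0.877 to 23.5) and 2.56%. The part of peak strength and of the depth of the control library in the share was not tested further.

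Among strong peaks the knockout-only share changed with the scaling and with the limit on q. As deposited, 24 of 94 strong knockout cluster peaks were knockout-only, or 25.5% (17.1 to 35.6). This compares with 14.9% on chromosome 11, 13.1% on chromosome 1 and 14.9% over the genome. With the knockout scaled to the control's depth it was 2 of 52, or 3.85% (0.469 to 13.2), against 6.09% on chromosome 11 and 5.35% on chromosome 1. At a −log10 q of at least 20 in the deposited lists it was 2 of 39, or 5.13%, against 3.01% and 2.65%. Scaling lowers the −log10 q of the knockout peaks, so a change in depth and a stricter limit cannot be told apart here. Strong control-only peaks numbered 2 of 46 (4.35%, 0.531 to 14.8), against 3.24% over the genome, and both lay in 11p15.

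**Figure D5:**
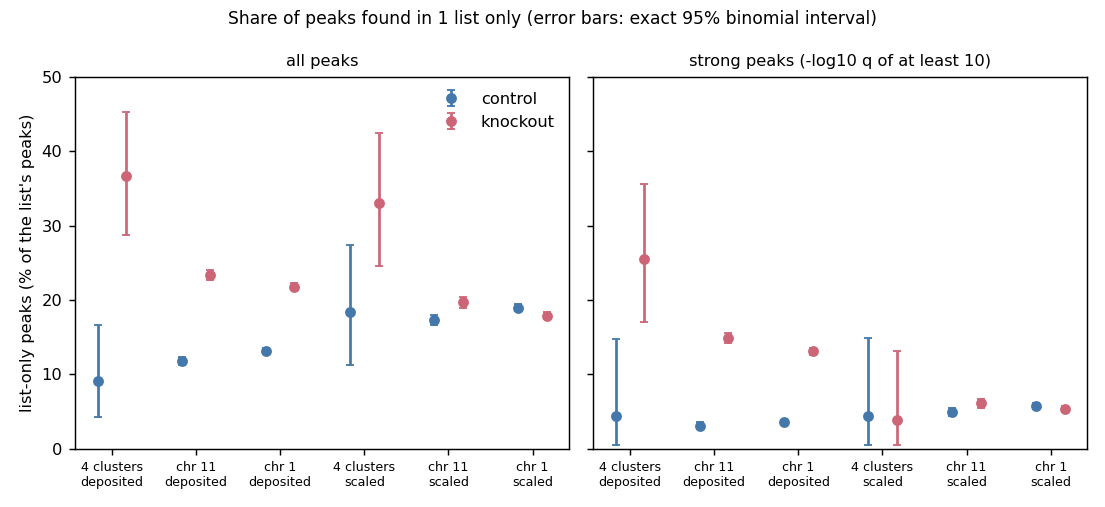
Share of peaks found in 1 list only, in percent of the list's peaks (y axis), for all peaks (left) and strong peaks (right), in the clusters and on each chromosome, as deposited and with the knockout scaled to the control's depth, with exact 95% binomial intervals. Among all peaks the knockout-only share of the clusters is 36.7% as deposited and 33.0% scaled, and among strong peaks it goes from 25.5% to 3.85%.

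The strongest knockout-only peaks lay in 11p15 and 1q44. In 11p15, 5610903 to 5611557 reached a pileup of 84 (67.0 to 104), or 19 times the mean of its library, at a fold of 8.97. The nearest control peak, at 5611914 to 5612302, began 0.357 kb away and was itself control-only, with a pileup of 21 (13.0 to 32.1) or 7.18 times the mean. In 1q44, 248020167 to 248020788 had a pileup of 65 (50.2 to 82.8), 14.7 times the mean, with no control peak within 47.6 kb. The others were lower. Of the rest named by rule, 4802472 to 4802896 in 11p15 and 247594392 to 247594887 in 1q44 each had a pileup of 30. In 11q11 the peaks starting at 56257356 and 56420001 had 29 each, and in 11q24 those starting at 124006253 and 124102330 had 26 each, the former with no control peak within 64.3 kb. The second strong control-only peak, at 5620632 to 5620942, also had a pileup of 21 and lay 1.74 kb from a knockout peak. What the pileup of the other library was at these places is not listed.

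The knockout list held 1.42 times the control's number of cluster peaks (1.09 to 1.86), against 1.13 times on chromosome 11 and over the genome and 1.09 times on chromosome 1. The interval included the chromosome 11 value. Like the other intervals of count ratios here, it treats the 2 lists as separate counts. All but 9 of the 98 control cluster peaks overlapped a knockout peak, so these intervals cannot decide whether the gain was larger in the clusters. Without 11p15 the ratio was 1.43 (0.978 to 2.10). By span the ratio was 1.41 in 11p15, 1.69 in 11q11, 2.33 in 11q24 and 1.07 in 1q44, and each of these intervals included 1 and the chromosome's ratio. With the knockout list reduced by q to as many peaks as the control's, the ratio was 1.17 (0.888 to 1.55), whose interval also included 1, against 1.00 and 0.967 on the chromosomes. In 1q44 it then fell below 1, to 0.852, with 23 knockout peaks. Local background in paired regions, each divided by its library mean, had a mean log2 ratio of -0.04 (SD 0.32) in the clusters, against 0.11 on chromosome 11 and 0.06 on chromosome 1. Background stood above the library mean in 76.5% of control and 61.9% of knockout cluster peaks, against 74.8% and 73.7% outside. Its part in the counts was not tested.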

How the data were processed

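The submitters' processing notes name FastQC, the aligner BWA, the peak caller MACS2 and the build hg19, without their settings, and the peak names in the lists are those of MACS2. Versions, duplicate handling and whether the inputs served as the background could not be taken from the sources used here. Each deposited list, 1 per immunoprecipitated library, gives each peak's position, length (other values), pileup signal at the summit, fold enrichment ratio, −log10 p and −log10 q, per the file headers. The deposited pileups are whole numbers of fragments with no stated scaling between libraries.

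Local background was derived by adding 1 to the pileup, dividing by the authors' deposited fold and subtracting 1. The Poisson tail with this background gave the deposited −log10 p within 0.000573. The lowest background served as the library mean, since tag totals were not used here. Density is per Mb up to the last listed peak of a chromosome. Intervals are exact Poisson for counts and exact Clopper-Pearson for shares and ratios of counts. For depth, knockout pileup and background were divided by 1.51, significance was recomputed, −log10 q was read from the control list's relation, and the top 261657 peaks were kept.

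The spans and lists were chosen with earlier results of these data known. Regions were named by rule: in each span the 3 pairs of highest summed scaled pileup, the pairs of highest and lowest ratio, the 2 strong list-only peaks of highest fold per list, the densest and sparsest windows, and the longest peak-free stretch. Genes were not placed on peaks, since no hg19 annotation was used. Overlap and pairing were tested on simulated data. Python 3.11.15, pandas 2.3.3 and SciPy 1.17.1 were used.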

Additional observations from a re-analysis of the deposited data

How the results depend on the processing

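Values were held to the 95% interval of the reported value. Of 82 alternatives over 8 results, 68 stayed within it, 14 left it and 0 reversed. A share has no sign and could not reverse, so the count of 0 says nothing about the shares. Set beside the chromosomes, some shares did change side. With a reciprocal overlap of at least 50%, list-only shares were 22.4% of control cluster peaks (21% on chromosome 11, 21.3% on chromosome 1), 45.3% of knockout (29.9%, 28%) and 15.2% of strong control peaks (11.1%, 10.6%). With the knockout list cut to the length of the control list, with or without scaling for depth, the control-only share was 18.4%. With scaling, chromosomes 11 and 1 had 17.3% and 19%, so the share lay between them, where as deposited it lay below both. Scaling moved the strong knockout-only share to 3.85%, below the 6.09% of chromosome 11 and the 5.35% of chromosome 1. As deposited, that share lay above both. With a fold of at least 5 the knockout-only share was 18.1% (against 11% on chromosome 11 and 9.54% on chromosome 1). With a −log10 q of at least 5 as the limit for strong peaks the knockout-only share was 36.3% (22.7%, 21%), and at 20 it was 5.13%, with 0% control-only (0 of 8). Without 11p15 the density ratios were 0.129 (control) and 0.167 (knockout), and the strong control-only share was 0% (0 of 20). The control density ratio was 0.139 for peaks with a −log10 q of at least 10. The cause was not tested, other than that fewer peaks enter by construction where a threshold is raised or a span left out. The median log2 ratio of pairs ran from -0.01 to 0.08. Leaving out 1 span at a time left the ratio of cluster peak counts between 1.36 and 1.55; these and the 2 shortened lists were chosen for it after seeing the data.

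With 1 library per group, the depth of the control list and the few cluster peaks limit every share. No paired analysis was possible because there was only 1 library of each kind.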
